A study of Mus musculus with 8 samples.

Results

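The growth cone genes examined here are Gap43, the 4 stathmin genes Stmn1 to Stmn4 and the 5 genes of the collapsin response mediator proteins (CRMPs), Dpysl2, Dpysl3, Dpysl4, Dpysl5 and Crmp1. A probe set, the group of short oligonucleotides that reads a transcript on the array, was taken as a member when the platform annotation named a listed gene and no other. This gave 19 probe sets for the 10 genes, of 34945 probe sets that name 1 gene and 18193 genes named in this way. Total RNA of mouse was measured on 8 Affymetrix arrays, 4 labelled Exp and 4 labelled Ctrl. What the Exp samples underwent, their genotype, strain and age are not given in the labels, nor is anything that the groups share beyond species and tissue. One label field names the trigeminal ganglion, which holds the sensory neurons of the face, and another names brain with adrenal medulla. No label ties an array to an animal of its own, and the p-values therefore reflect array-to-array spread, technical spread included.

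Growth cones are the motile tips of growing axons, and their advance depends on how actin and microtubules are assembled at the tip. GAP43 is a membrane-bound phosphoprotein of growth cones, a substrate of protein kinase C that binds calmodulin. Stathmins bind tubulin dimers and promote microtubule disassembly until kinases phosphorylate them. CRMPs bind tubulin and other cytoskeletal proteins and carry the signal of the repellent semaphorin 3A to the cytoskeleton. In sensory ganglia these genes are known as markers of axon growth in development and after nerve injury. The comparison addressed is whether their transcripts differed between Exp and Ctrl.

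No probe set of the 10 genes passed the test between Exp and Ctrl. The differences of Exp minus Ctrl lay between -0.36 (Dpysl5) and 0.20 (Stmn4) on the scale of log2(signal + 16) after quantile normalization, the scale of every level and difference given here unless another is named. All 19 probe sets passed the filter on low signals, a mean at or above the 40th percentile. By limma, fitted to all 27022 tested probe sets, 0 of the 19 had a Benjamini-Hochberg adjusted p under 0.05, where 0.0037% of all tested probe sets did, and each adjusted p was 0.999. At an unadjusted p under 0.05 the count was also 0, beside 4.69% of all tested probe sets, and the smallest was 0.0896 (limma) for Stmn4. With the trend and robust options of eBayes it was 1 of 19, Stmn4 at an unadjusted p of 0.0228 (limma), beside 4.07% of all tested probe sets. The groups did not overlap in 0 of the 19, beside 2.34% of all tested probe sets. With so few probe sets, counts of 0 lie near these background shares. Exp had the higher mean in 7 of the 19 and the lower mean in 12, with a median difference of -0.075, and over all tested probe sets 48.4% had the higher mean in Exp, with a median of -0.0058. Among the 12 are the dim Dpysl2 1450502_at and Dpysl5 1441246_s_at, which passed the filter only through Ctrl, so their lower sign in Exp is in part selected. In the brightest probe set of each gene, 6 of the 10 had the higher mean in Exp and 4 the lower.

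The precision behind these values was high enough to bound the differences on this scale. The 95% confidence interval excluded a 2-fold difference in either direction for 19 of the 19 probe sets, as it did for 93.5% of all tested probe sets. With the main settings it excluded a 1.5-fold difference for 18 of them, against 66.0% of all tested probe sets. That count was not repeated under the alternative settings listed below. Dpysl4 1418299_at lay just inside the bound, with a lower limit of -0.577. Its SE of 0.221 became 0.237 with no filter and 0.152 with a block on the replicate number. With median centring Dpysl4 1418298_s_at moved from -0.19 (SE 0.161) to -0.25 (SE 0.186). The count of 18 is therefore given for the main settings only. The median standard error (SE) was 0.11 for the growth cone probe sets and 0.15 over all tested ones. In very bright probe sets the SE was larger without quantile normalization, at 0.114 against 0.087 for Stmn1 1415849_s_at and 0.106 against 0.091 for Stmn3 1435113_x_at. Whether such probe sets approach saturation is not known, as the files carry no flag for it. The outer limits of the 19 intervals were -0.81, for the Dpysl5 probe set 1441246_s_at, and 0.44, for Stmn4.

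**Figure D1:**
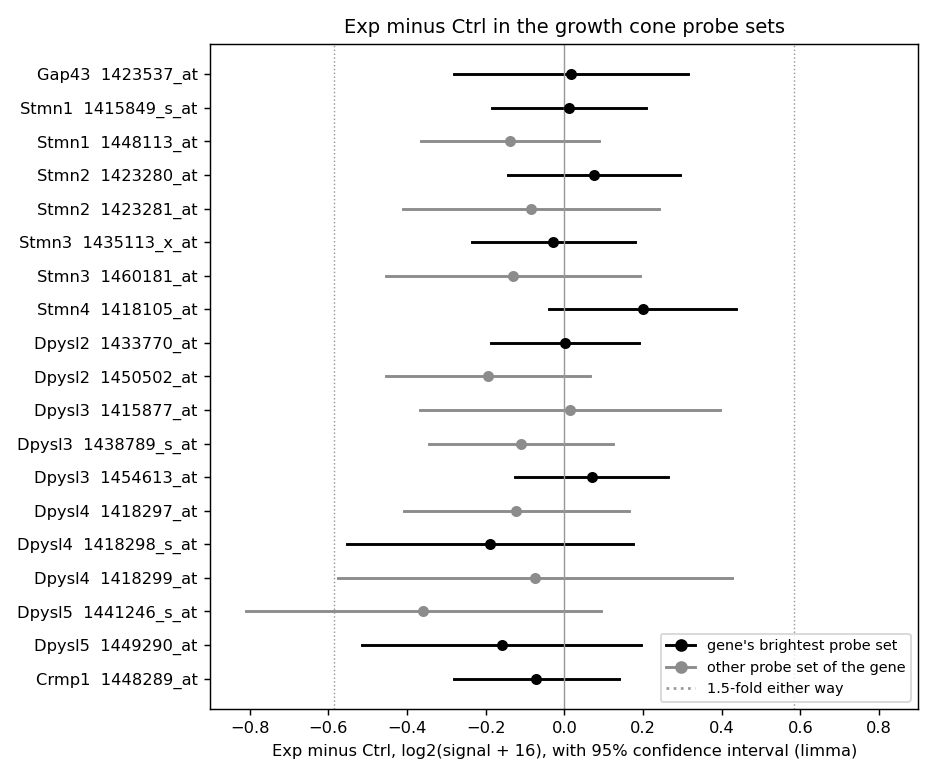
Exp minus Ctrl of log2(signal + 16) in each of the 19 probe sets of the growth cone genes, as points with 95% confidence intervals from limma (4 Exp and 4 Ctrl arrays). Black marks the brightest probe set of a gene, grey its others, and the dotted lines a 1.5-fold difference. The intervals of all 19 include 0, and that of Dpysl5 1441246_s_at alone extends beyond a dotted line.

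Markers of the labelled tissue and of cells that could be carried along were set beside these values. Over all tested genes, 45.2% had the higher mean in Exp in the brightest probe set. Of 7 sensory neuron markers, all passed the filter and 6 had the higher mean in Exp. Those 6 differed by only 0.00014 (Prph, SE 0.09) to 0.083 (Pou4f1, SE 0.09), and the other by -0.045. The list mean lay between -0.02 and 0.04 from the 8-array mean on the Exp arrays and between -0.09 and 0.18 on the Ctrl arrays. Their summed deposited signal was 235459 to 268010 in Exp and 228062 to 242684 in Ctrl. The 8 skeletal muscle markers, all 8 with the higher mean in Exp, spread widely in that group, with summed signals of 4138 (Exp 4) to 68747 (Exp 3), against 6513 to 10898 in Ctrl. Schwann cell and satellite glia markers, 6 genes of which 5 had the lower mean in Exp, had list means of -0.63 to 0.04 in Exp and -0.23 to 0.60 in Ctrl, and summed signals of 139497 to 164144 in Exp and 142719 to 176465 in Ctrl. Most of the spread of these list means came from Egr2, a transcription factor of myelinating Schwann cells, at 7.36 to 11.04 in Exp and 9.15 to 13.23 in Ctrl (difference -2.66, SE 0.97, limma adjusted p = 0.999), and the other 5 differed by -0.34 to 0.016. Of the chromaffin markers 4 of 5 passed the filter, all 4 with the lower mean in Exp, at -0.17 (Pnmt) to -0.07 (Th). Dbh did not pass and went the other way, with means of 8.83 in Exp and 8.06 in Ctrl. All 4 Exp arrays of Dbh lay above the highest Ctrl array, and groups did not overlap in 2.25% of all tested genes. Summed signals of the 5 were 31941 to 33210 in Exp and 32744 to 35959 in Ctrl. Of the central neuron markers Neurod6 (-0.16) and Neurod2 (-0.33) passed, both with the lower mean in Exp, and Slc17a7 and Emx1 did not. Summed signals of these 4 were 3676 to 6135 in Exp and 4573 to 5679 in Ctrl. The filter was passed by 12763 of 18193 genes, so passing it does not by itself show that such cells were present. The part of these other cells in the growth cone values was not tested. In a whole tissue, fewer neurons and less RNA per neuron cannot be told apart. Deposited signals had a median of 478 to 553 per array, and any 2 arrays correlated at 0.968 to 0.980 over the tested probe sets.

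Gap43 was read by a single probe set, 1423537_at. Its level was 15.19, 15.30, 15.24 and 14.88 on Exp 1 to Exp 4, against 14.90, 15.17, 15.17 and 15.30 on Ctrl 1 to Ctrl 4. One array in each group, Exp 4 and Ctrl 1, lay about equally far under the rest, so the ranges of the groups nearly coincide. The means were 15.15 ± 0.19 in Exp and 15.14 ± 0.17 in Ctrl (SD, n = 4 each), and the difference was 0.017 (SE 0.13, interval -0.28 to 0.31, limma adjusted p = 0.999). On the deposited linear scale Gap43 gave 30686 on Exp 4 and 30048 on Ctrl 1, the lowest of its group in each case, while the other 6 arrays gave more.

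Stmn1, the cytosolic stathmin that is also abundant in dividing cells, had a pair of probe sets. The brighter, 1415849_s_at, had 16.73, 16.60, 16.74 and 16.73 on the Exp arrays and 16.71, 16.64, 16.65 and 16.75 on the Ctrl arrays. Its suffix marks probes that can match several transcripts, and the RefSeq table lists related Stmn1 pseudogenes, so this signal may not come from Stmn1 alone. The difference was 0.012 (SE 0.09). The other, 1448113_at, had 14.64, 14.51, 14.44 and 14.51 in Exp, against 14.62, 14.67, 14.54 and 14.82 in Ctrl. Here 3 of the 4 Exp arrays lay under the lowest Ctrl array and Exp 1 lay within the Ctrl range, with a difference of -0.14 (SE 0.10, limma unadjusted p = 0.201). Of 5 markers of dividing cells, 4 had the higher mean in Exp, with list means of -0.24 to 0.22 in Exp and -0.29 to 0.23 in Ctrl.

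Stmn2, also known as SCG10, is a neuronal stathmin held at membranes by a palmitoylated end and concentrated in growth cones. Its brighter probe set, 1423280_at, had 15.80, 15.59, 15.77 and 15.82 in Exp and 15.68, 15.56, 15.76 and 15.68 in Ctrl. Exp 1, Exp 3 and Exp 4 lay above the highest Ctrl array, but Exp 2 lay within the Ctrl range, and the difference was 0.08 (SE 0.10, interval -0.14 to 0.29). The dimmer probe set, 1423281_at, had 12.62, 12.32, 12.48 and 12.01 in Exp, against 12.34, 12.46, 12.36 and 12.62 in Ctrl, a difference of -0.09 (SE 0.14). Exp 4 was thus the highest of the 8 arrays in the first probe set and the lowest in the second, and without Exp 4 the difference in the second was 0.030.

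Stmn3, known as SCLIP, is a further membrane-bound neuronal stathmin. The probe set 1435113_x_at had 16.72, 16.70, 16.70 and 16.82 in Exp and 16.67, 16.81, 16.86 and 16.70 in Ctrl, with a difference of -0.028 (SE 0.09), which was 0.045 without quantile normalization. Its suffix marks probes that can cross-hybridise. The other probe set, 1460181_at, had 13.83, 13.59, 13.82 and 13.34 in Exp and 13.52, 13.84, 13.86 and 13.87 in Ctrl. Ctrl 1 stood well under the other Ctrl arrays, while in Exp the values spread from Exp 4 upward, and the difference was -0.13 (SE 0.14, interval -0.45 to 0.19), or -0.029 without Exp 4.

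Stmn4, known as RB3, a brain-enriched membrane-bound stathmin, came nearest to separating the groups. Its probe set 1418105_at had 15.12, 15.06, 15.41 and 15.29 in Exp, against 15.06, 14.98, 15.06 and 14.98 in Ctrl. Exp 1, Exp 3 and Exp 4 lay above the highest Ctrl array, and Exp 2 lay just under that array. The mean was 15.22 ± 0.16 in Exp and 15.02 ± 0.04 in Ctrl (SD, n = 4 each), and the difference of 0.20 (SE 0.10, a 1.15-fold difference, interval -0.04 to 0.44) did not pass (limma adjusted p = 0.999). Exp 3, the array with the highest muscle marker signal, was also the highest for Stmn4, and without it the difference was 0.14 (SE 0.10). Exp 4, with the lowest muscle signal, was second highest.

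Of the stathmin probe sets, 3 of 7 had the higher mean in Exp, with a median difference of -0.028.

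**Figure D2:**
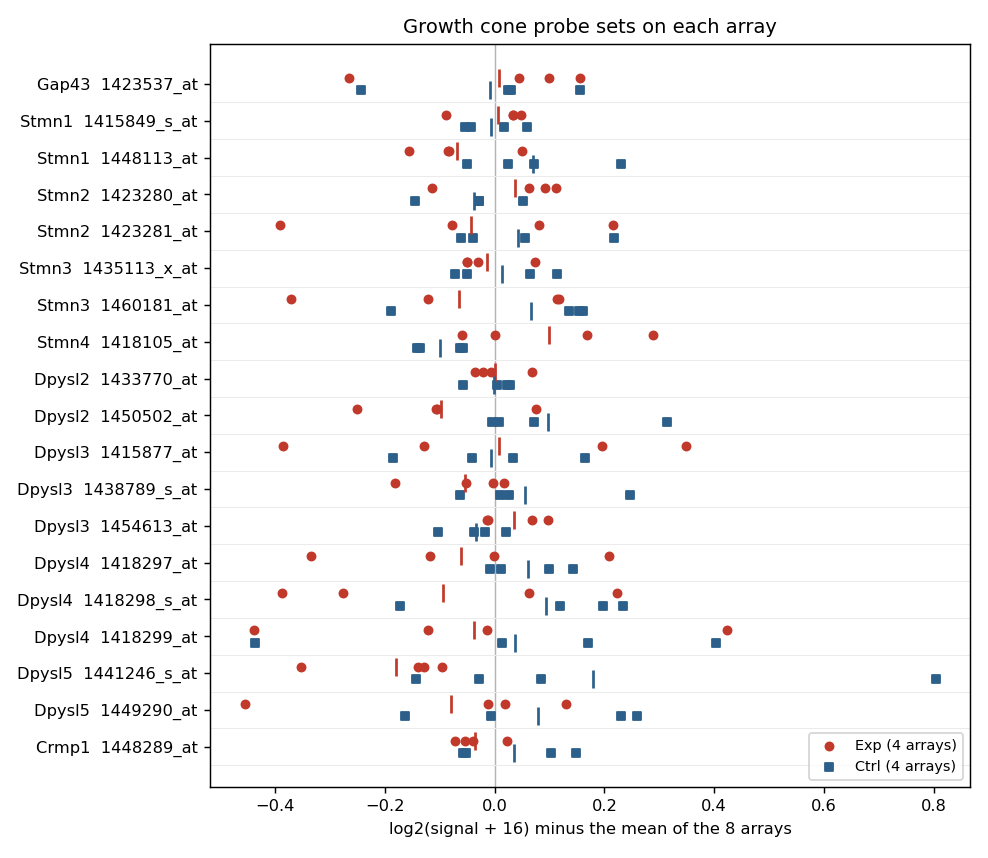
Each point is log2(signal + 16) on 1 array minus the mean of the 8 arrays, for the 19 probe sets of the growth cone genes. Red circles are the 4 Exp arrays, blue squares the 4 Ctrl arrays, and vertical ticks the group means. Circles and squares overlap in each row, 3 of the 4 Exp arrays of Stmn4 lie right of the squares, and Ctrl 2 stands alone at the right in Dpysl5 1441246_s_at.

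Dpysl2 encodes CRMP2, the CRMP best known for promoting axon growth by delivering tubulin to growing microtubules. Its bright probe set, 1433770_at, had 16.46, 16.37, 16.38 and 16.35 in Exp and 16.42, 16.41, 16.39 and 16.33 in Ctrl. These 8 values were the most uniform of the members, with SDs of 0.05 in Exp and 0.04 in Ctrl, and the difference was 0.0017 (SE 0.08, interval -0.19 to 0.19). The dim probe set, 1450502_at, had 8.60, 8.27, 8.42 and 8.42 in Exp, against 8.52, 8.60, 8.84 and 8.53 in Ctrl. Exp 1 lay among the Ctrl values and the other Exp arrays under them. The Exp mean of 8.43 lay under the filter at 8.45 and the Ctrl mean of 8.62 above it, so this probe set was tested only through Ctrl, and the difference was -0.19 (SE 0.11, limma unadjusted p = 0.124).

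Dpysl3, which encodes CRMP4, was read by 3 probe sets. The brightest, 1454613_at, had 15.94, 15.85, 15.97 and 15.86 in Exp, against 15.89, 15.83, 15.85 and 15.77 in Ctrl, a difference of 0.07 (SE 0.09). Much wider was 1415877_at, with 14.88, 14.73, 14.40 and 14.15 in Exp and 14.56, 14.70, 14.35 and 14.49 in Ctrl. In that probe set the Exp group held both the 2 highest and the lowest of the 8 values, and the SD was 0.33 in Exp and 0.15 in Ctrl, so the difference of 0.014 has an SE of 0.17. The third, 1438789_s_at, had 13.61, 13.63, 13.43 and 13.56 in Exp and 13.86, 13.64, 13.62 and 13.55 in Ctrl, with a difference of -0.11 (SE 0.10).

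Dpysl4 encodes CRMP3, the family member known from Purkinje cells and the hippocampus. The brightest of its 3 probe sets, 1418298_s_at, had 12.36, 12.25, 12.86 and 12.70 in Exp and 12.46, 12.75, 12.87 and 12.83 in Ctrl, a difference of -0.19 (SE 0.16, interval -0.55 to 0.18). Exp 1 and Exp 2 lay under the Ctrl range and Exp 3 and Exp 4 within it. A like order recurred in 1418299_at, which had 9.97, 9.66, 10.52 and 10.08 in Exp and 9.66, 10.11, 10.50 and 10.27 in Ctrl, with Exp 2 and Ctrl 1 lowest and Exp 3 and Ctrl 3 highest. The SD there was 0.36 in Exp and 0.35 in Ctrl, the widest pair among the members, and the difference was -0.07 (SE 0.22). The third, 1418297_at, had 9.23, 9.12, 9.44 and 8.90 in Exp and 9.22, 9.24, 9.38 and 9.33 in Ctrl, with a difference of -0.12 (SE 0.13), or -0.031 without Exp 4.

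Dpysl5 encodes CRMP5, the most divergent member of the family, which is known to restrain outgrowth promoted by CRMP2. Its brighter probe set, 1449290_at, had 10.80, 10.21, 10.69 and 10.66 in Exp and 10.51, 10.90, 10.93 and 10.66 in Ctrl. Exp 2 was lowest and the remaining Exp arrays lay within the Ctrl range, and the difference was -0.16 (SE 0.16), or -0.035 without Exp 2. The dim probe set 1441246_s_at had 8.37, 8.34, 8.11 and 8.33 in Exp, against 8.44, 9.27, 8.55 and 8.32 in Ctrl. Its difference, -0.36 (SE 0.20, interval -0.81 to 0.09), was the largest in size of the 19, and Ctrl 2, at 9.27, stood above the other 7 arrays, whose highest value was 8.55. The mean of the other 7 arrays was 8.35, under the filter at 8.45, so this probe set was tested only because of Ctrl 2, and without that array it was filtered out.

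Crmp1, a CRMP that takes part in the semaphorin 3A response of neurons, was read by 1448289_at. It had 13.72, 13.75, 13.82 and 13.74 in Exp, against 13.74, 13.94, 13.90 and 13.74 in Ctrl. All 4 Exp arrays lay close together, with an SD of 0.04, while in Ctrl the SD was 0.11 and Ctrl 2 and Ctrl 3 were the 2 highest arrays. The difference was -0.07 (SE 0.09, interval -0.28 to 0.14). Over the 11 CRMP probe sets, 3 had the higher mean in Exp, with a median difference of -0.11. That count includes, among the lower ones, Dpysl2 1450502_at and Dpysl5 1441246_s_at, which passed the filter only through Ctrl.

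Probe sets of the same gene did not always rank the arrays alike. The Dpysl4 probe sets 1418298_s_at and 1418299_at nearly did, while others parted on Exp 4. Exp 4 was the lowest array for 5 of the 19 probe sets, those of Gap43, Stmn2 (1423281_at), Stmn3 (1460181_at), Dpysl3 (1415877_at) and Dpysl4 (1418297_at), where it lay -0.45 to -0.30 from the mean of the other 7 arrays. Over all tested probe sets Exp 4 was lowest in 15.8%. Exp 2 was likewise lowest for 5 of the 19, among them both probe sets of Dpysl4 other than 1418297_at, beside 12.7% of all tested probe sets. In the brightest probe sets of these genes Exp 4 was the highest array for Stmn2 and the second highest for Stmn3, and it lay in mid-order for Dpysl3 and Dpysl4. Without quantile normalization 4 of the 5 kept Exp 4 as the lowest array, and for Gap43 it was Ctrl 1. In the actin control of the array, the signal at the 3' end over that in the middle of the transcript was 2.57 on the log2 scale on Exp 4, the highest of the 8, followed by 2.49 on Exp 3 and 2.44 on Ctrl 1, and lay between 2.21 and 2.33 on the others. Other control ratios ordered the arrays differently. The 3' end over the 5' end of actin was highest on Exp 2 (4.66), ahead of Exp 4 (4.61), and that of pyruvate carboxylase was highest on Exp 3 (2.58), with 1.71 on Exp 4. That of the transferrin receptor was highest on Exp 4 (3.01), against 0.58 to 1.76 on the other 7 arrays, with deposited signals at its 5' end of 17.4 on Exp 4 and 42.8 to 131 on the rest. The part of RNA quality in the disagreement of probe sets was not tested.

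**Figure D3:**
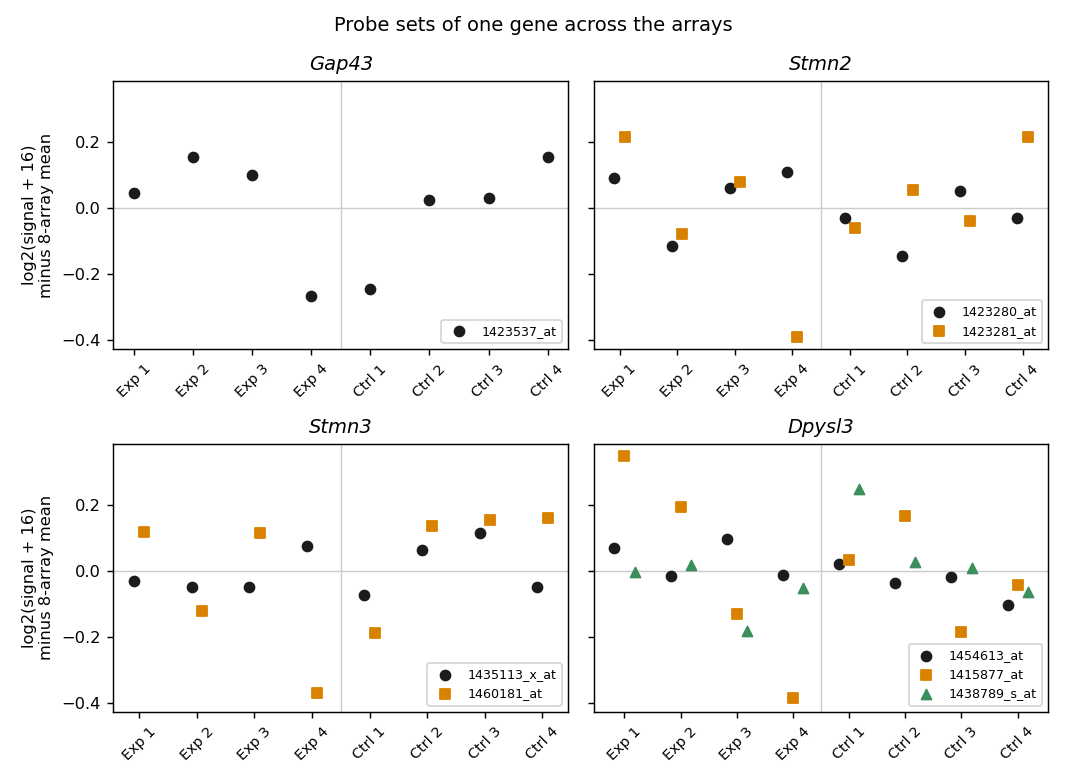
log2(signal + 16) on each array minus the mean of the 8 arrays, for the probe sets of Gap43, Stmn2, Stmn3 and Dpysl3, with Exp arrays left and Ctrl arrays right of the grey line. On Exp 4 the dimmer probe sets of Stmn2 and Stmn3 and the Dpysl3 probe set 1415877_at lie lowest of the 8 arrays, as Gap43 does, while the brightest probe sets of Stmn2 and Stmn3 lie above their means.

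Whether the probe sets of a gene differed in their response was tested on the difference between them on each array. For 11 pairs within 7 genes, the exact permutation test over the 70 ways to split the arrays, two-sided, gave adjusted p from 0.314 to 0.857 (Benjamini-Hochberg over the 11 pairs). The smallest exact p was 0.0571, for the pair of Dpysl2 and for the Dpysl3 probe sets 1454613_at and 1438789_s_at. The smallest exact p possible is 0.0286, so 1 pair alone at that value would have an adjusted p of 0.314. A lower adjusted p would need more than 1 pair with so small an exact p, and the adjusted values say little. The Dpysl2 value also rests on the dim probe set 1450502_at, with its Exp mean under the filter. In the Dpysl3 pair the gap was 2.35 ± 0.13 in Exp and 2.17 ± 0.09 in Ctrl (SD, n = 4 each), wider by 0.18 in Exp.

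Averaging the tested probe sets of each gene left the same outcome, with 0 of the 10 genes past the threshold by limma and 0 at an unadjusted p under 0.05. On that measure Stmn4 differed by 0.20 (SE 0.10), Dpysl5 by -0.26 (SE 0.15), Dpysl4 by -0.13 (SE 0.15) and the other 7 genes by -0.10 to 0.017. The Dpysl5 value includes the dim probe set 1441246_s_at, tested only because of Ctrl 2, and its other probe set alone gave -0.16.

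The proteins that act with GAP43, stathmins and CRMPs were followed through a list of 39 genes, of which 34 had a tested probe set that names them alone. In the brightest probe set of each gene, 0 of 34 passed an adjusted p under 0.05 in limma, beside 0.00784% of all 12763 tested genes. At an unadjusted p under 0.05 it was 1 of 34, beside 3.73% of all. Exp had the higher mean in 16 and the lower in 18, with a median of -0.0017, and over all tested genes 45.2% had the higher mean in Exp, with a median of -0.015. The groups did not overlap in 3 of the 34, Gsk3b, Mapk9 and Cdc42, beside 2.25% of all tested genes. Cdc42 differed by only 0.075 (SE 0.09), and its other tested probe sets ran the other way, from -0.059 to -0.0044.

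Kinases that phosphorylate the growth cone proteins made up 13 of the tested partners, 6 with the higher and 7 with the lower mean in Exp. Prkca, the alpha form of protein kinase C, averaged 13.56 ± 0.20 in Exp and 13.18 ± 0.22 in Ctrl (SD, n = 4 each), a difference of 0.39 (SE 0.14, limma adjusted p = 0.999), and its other probe set differed by 0.18. Cdk5r1, the p35 activator of the CRMP kinase Cdk5, differed by 0.26 (SE 0.12) in its brightest probe set and by -0.09 in the other. Cdk5 itself differed by -0.17 (SE 0.11) in its brightest probe set and by -0.022 in the other. Gsk3b, a kinase that acts on CRMP2 primed by Cdk5, averaged 13.43 ± 0.34 in Exp and 13.07 ± 0.15 in Ctrl, a difference of 0.36 (SE 0.17), while its other 5 tested probe sets ran from 0.0012 to 0.33. Of the stathmin kinases, Mapk8 differed by -0.06 (SE 0.11), Mapk9 by 0.13 (SE 0.09) and Mapk10 by -0.0033 (SE 0.10). Their other tested probe sets ran from -0.25 to 0.09 for Mapk8 and from -0.03 to 0.05 for Mapk9, and the one of Mapk10 was at -0.15.

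Among the substrates of protein kinase C that resemble GAP43, Basp1 differed by 0.0058 (SE 0.09), Marcks by 0.0089 (SE 0.09) and Marcksl1 by -0.11 (SE 0.21). The other tested probe sets ran from -0.095 to 0.20 for Marcks and from -0.043 to -0.0087 for Marcksl1. The calmodulin-binding proteins Pcp4 and Nrgn differed by -0.17 (SE 0.38) and -0.09 (SE 0.21). Of these 5 genes 2 had the higher and 3 the lower mean in Exp, with a median of -0.088. Binding partners of CRMP2, 5 genes, lay between -0.08 and 0.15 in the brightest probe set of each. The other tested probe sets of these genes ran from -0.32 to 0.37. Of 11 actin proteins of the growth cone, 7 had the higher mean in Exp, with Evl, a protein of the Ena/VASP family that promotes actin filament elongation, at -0.19 (SE 0.10) and the bundling protein Fscn1 at 0.0022 (SE 0.08). The other tested probe sets ran from -0.15 to 0.36 for Evl and from -0.40 to -0.025 for Fscn1.

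**Figure D4:**
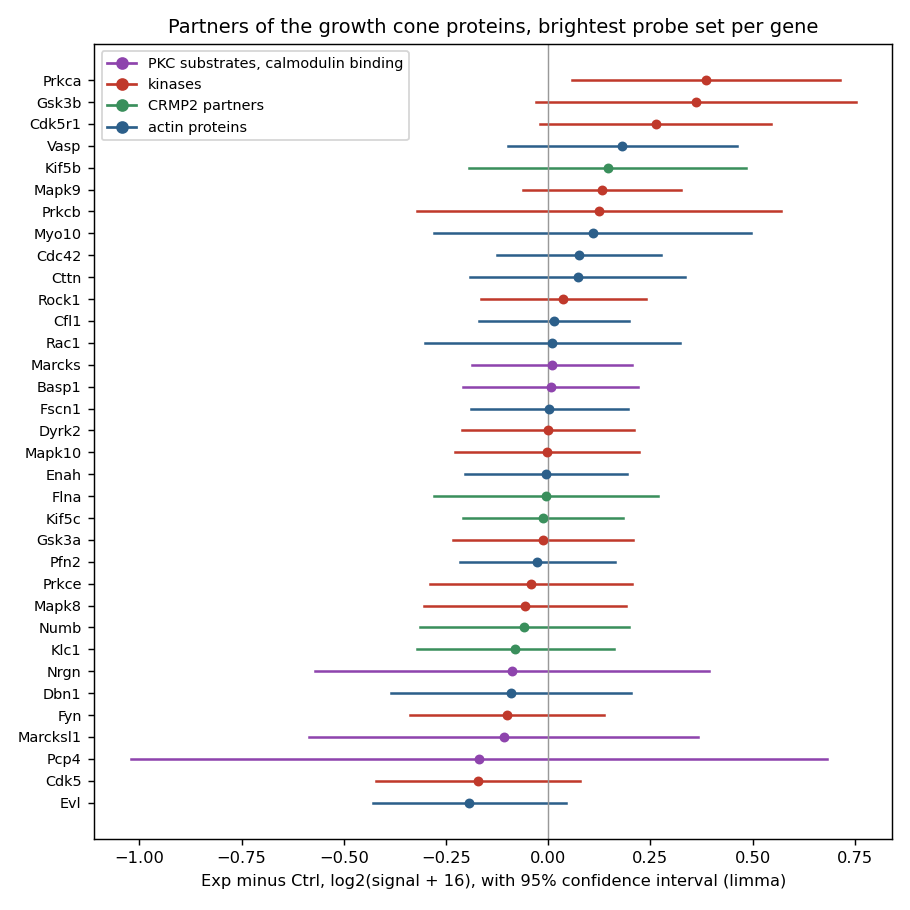
Exp minus Ctrl of log2(signal + 16) in the brightest tested probe set of 34 partner genes, as points with 95% confidence intervals from limma (4 Exp and 4 Ctrl arrays), coloured by class and ordered by value. The values run from -0.19 (Evl) to 0.39 (Prkca), and 0 of 34 passed after adjustment over all probe sets.

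Gap43 and Stmn2 were also set beside all other tested genes by the root mean square distance of the centred log2 levels over the 8 arrays, a description in which genes are not independent. Nearest to Gap43 were Med19, a Mediator subunit (0.054), Cdc25b, a phosphatase of the cell cycle (0.058), and Kdm4c, a histone demethylase (0.059), with a median of 0.235 over 12753 genes. For the brightest probe set of Stmn2 they were Tmem183a (0.044), Smdt1, a component of the mitochondrial calcium uniporter (0.044), and Hsd17b7, a sterol-synthesis enzyme (0.046), with a median of 0.204. Members of the growth cone set lay farther off than these nearest genes, which were picked from all tested genes. From Gap43 the closest was Crmp1 at 0.161, rank 1920 among all, and the other members ranked down to 8081. From Stmn2 it was Stmn1 at 0.068, rank 71, followed by Dpysl3 (202), Dpysl2 (460), Stmn3 (703) and Stmn4 (892). Crmp1 ranked 2560 from Stmn2, and Gap43 (at 0.202), Dpysl5 and Dpysl4 ranked 6296 to 7433.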

How the data were processed

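The deposited table holds linear intensity values for each array. The authors' software, background correction and genome build are not given in the sources used here. A mean trimmed by 2% at each end came to 2500 on every array, as global scaling gives, so differences are relative to the bulk of the signal. The files carry no detection call, saturation flag or scan batch, and the 4 arrays per group limit the precision. All columns were mapped to samples through the titles.

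Signals were taken as log2(signal + 16) and quantile normalized. After leaving out 64 control probe sets and those whose mean fell below the 40th percentile (a signal near 333), the 27022 others were fitted with limma 3.58.1 in R 4.3.3 (lmFit, eBayes, two-sided, Benjamini-Hochberg over all tested probe sets, 5% false discovery rate). Names came from the platform annotation, with symbols brought up to date by Entrez identifier from RefSeq (GRCm38.p6). A gene with several probe sets was represented by the brightest where 1 was needed. Signals of different probe sets were not ranked against each other, since probes bind with different strength. The fit was tested on simulated data.

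The members and gene lists were chosen with earlier results of these data known. Named were every member, the 4 partners with the smallest p (the rule took those with an unadjusted p under 0.05 only where at least 4 passed), the 3 genes nearest to Gap43 and to Stmn2 over the arrays, and markers by list order, except Egr2. The marker Egr2 and the other partners named (Cdk5, Mapk8, Mapk9, Mapk10, Basp1, Marcks, Marcksl1, Pcp4, Nrgn, Fscn1 and Cdc42) were chosen after their values were seen. Partners without a tested probe set that names them alone (among them Rock2, Fes, Pak1 and Cyfip1) were not analysed here. Alternatives were other pseudocounts (1 and 64), no filter or one at the 60th percentile, no quantile normalization, median centring, a block on the replicate number, the trend and robust options of eBayes, gene means and leaving out each array. Figures were drawn with matplotlib 3.10.9.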

Additional observations from a re-analysis of the deposited data

Results flagged for a closer look

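The growth cone probe sets, the other genes named by rule and the marker lists were searched, within each group of 4 arrays, for an array that stood apart from the other 3 by more than Dixon's 95% limit. Of 70 such groups 8 held one, against about 3.5 expected by chance, and because the groups share arrays they are not independent. The genes nearest to Gap43 and Stmn2 were also picked for following them on these same arrays. The count of 8 therefore cannot be judged against 3.5.

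Among the growth cone probe sets, Exp 2 lay apart for Stmn1 1415849_s_at at 16.60 (the other Exp arrays 16.73 to 16.74). Exp 4 lay apart for Stmn3 1435113_x_at at 16.82 (16.70 to 16.72 on the rest). For Stmn3 1460181_at it was Ctrl 1, at 13.52 (the other Ctrl arrays 13.84 to 13.87). Exp 3 lay apart for Dpysl5 1441246_s_at at 8.11 (the others 8.33 to 8.37). Among the genes nearest to Gap43 and Stmn2, Exp 4 lay apart for Cdc25b at 9.72, Exp 2 for Smdt1 at 15.22 and Ctrl 2 for Hsd17b7 at 14.28. The mean of the sensory neuron markers was 0.18 above the 8-array mean on Ctrl 2, against -0.09 to -0.07 on the other Ctrl arrays.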

How the results depend on the processing

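No growth cone probe set passed under any of the alternatives run, nor did a partner gene under those run for the partners, which leave out the gene means, and the smallest adjusted p of a growth cone probe set over them was 0.725. In 146 of 149 values under the other settings, and in 136 of 151 with 1 array left out, a growth cone probe set kept the sign of its difference. The filter, block and eBayes settings leave the difference itself unchanged, so their values among the 149 could not change sign. Only the pseudocount and normalization settings could do so. The 3 exceptions among settings were Stmn3 1435113_x_at at 0.045 without quantile normalization, and Gap43 at -0.023 and Dpysl3 1415877_at at -0.032 with median centring. With 1 array left out the values ran from -0.061 to 0.11 for Gap43, -0.0048 to 0.044 for Stmn1 1415849_s_at, -0.17 to 0.030 for Stmn2 1423281_at, -0.058 to 0.0057 for Stmn3 1435113_x_at, -0.021 to 0.013 for Dpysl2 1433770_at, -0.099 to 0.14 for Dpysl3 1415877_at and -0.23 to 0.059 for Dpysl4 1418299_at, the probe sets that changed sign. Among those that kept their sign, the value nearest 0 was -0.084 for Stmn1 1448113_at and -0.046 for Dpysl3 1438789_s_at (without Ctrl 4 and Ctrl 1), -0.12 for Dpysl2 1450502_at (without Ctrl 3), -0.091 for Dpysl4 1418298_s_at (without Exp 2), -0.034 for Crmp1 and 0.038 for Stmn2 1423280_at (both without Ctrl 2), and between -0.035 and -0.029 for Dpysl5 1449290_at, Stmn3 1460181_at and Dpysl4 1418297_at. Stmn4 stayed between 0.14 (without Exp 3) and 0.25 (without Exp 2). The number of growth cone probe sets tested was 16 with the filter at the 60th percentile and 18 without Ctrl 2.

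Over all probe sets 1 passed, and 0 without a filter, with the filter at the 60th percentile and with the replicate number as a block, and 0 to 1 with 1 array left out, where the count stayed 1 only without Exp 2. Arrays of the same number had deviations that correlated between -0.12 and 0.050, and no Exp array correlated best with the Ctrl array of its own number, so the numbers were not taken as pairs. The median of the partner list was 0.040 without quantile normalization. The cause of these shifts was not tested. Without detection calls, how far the dim probe sets (Dpysl2 1450502_at, Dpysl5 1441246_s_at) lie above background is not known.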
